A study of Mus musculus with 6 samples.

Results

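The genes described here encode the nuclear-encoded subunits of the mitochondrial respiratory chain and of ATP synthase, with some of their assembly factors. They were taken by symbol: every array row with a single platform gene symbol that begins with Nduf, Uqcr, Cox4i, Cox5, Cox6, Cox7, Cox8 or Atp5, and where a gene had several rows, the brightest by its 6-array mean. This gave 85 of the 19937 genes on the array (0.426%), of which 41 belong to complex I, 8 to complex III, 19 to complex IV and 17 to complex V. The symbol rule uses no measured levels, though the choice among rows of a gene does. The set was chosen with earlier results of these data known. The study measured gene expression in sorted mouse T cells on 6 Affymetrix whole-transcript arrays, 3 per group. T cells of wild-type C57BL/6 mice (labelled 6 to 8 weeks of age) were transferred into recipients that lacked CD3ε and so had no T cells of their own. In the MHC II-competent group the recipients were CD3ε-deficient and expressed MHC class II, and in the MHC II-deficient group they were deficient for both CD3ε and MHC class II. After 5 days the CD4+ TCRβ+ CD25+ cells, the gate for regulatory T cells (Tregs), were isolated by magnetic beads and cell sorting, with peripheral lymph nodes and spleen as the tissue. In both groups the sorted T cells thus came from the transfer, while the recipients kept their own non-T cells, and the comparison asks which transcripts differ when the host offers no MHC class II to the T cell receptor.

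The labels call the 3 arrays of each group biological replicates and do not say whether a replicate was 1 mouse or a pool, so a p-value here reflects only how far these 3 preparations per group varied, which may be technical. All values are log2 levels as deposited, differences are MHC II-deficient minus MHC II-competent, and a gene is called past the threshold at a Benjamini-Hochberg adjusted p under 0.05 over all 15037 genes tested with limma. T cell markers were high on every array, with Cd3e between 11.08 and 11.27 and Foxp3, the defining transcription factor of Tregs, between 9.68 and 9.88. All 9 T cell and Treg markers nevertheless lay lower in the deficient group, 0 of them past the threshold, with a median difference of -0.14. For 5 the groups were apart, where 12.9% of all tested genes were apart in that direction. The share was 29.7% at a mean level of at least 9, the range of all 9. Their mean level was 11.06 to 11.23 on the competent and 10.98 to 11.04 on the deficient arrays. Of 19 tested myeloid markers 17 had the higher mean without host MHC class II. The threshold was passed by 1 (Adgre1), where 1.34% of all tested genes were called higher. Their mean level was 6.13 to 7.02 on the competent and 6.94 to 7.84 on the deficient arrays. Of 11 proliferation markers 5 were called lower and 0 higher, where 2.03% and 1.34% of all tested genes were. Their mean level was 9.60 to 9.85 on the competent and 9.28 to 9.38 on the deficient arrays. Of 4 tested CD8 T and NK markers 3 lay higher, 0 called, with mean levels of 7.39 to 7.48 on the competent and 7.56 to 7.68 on the deficient arrays. The array means of the B cell and of the erythroid and platelet markers overlapped between the groups. The T cell, myeloid, proliferation and CD8 T and NK lists moved with the comparison below. Their part in it was not tested, except that the myeloid score was also fitted as a covariate. In sorted bulk samples, fewer cells of a type and less RNA per cell cannot be told apart.

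The respiratory chain sits in the inner mitochondrial membrane. Complex I takes electrons from NADH, complex III passes them to cytochrome c, and complex IV hands them to oxygen, and the proton gradient built on the way drives complex V, the ATP synthase. Most subunits are encoded in the nucleus, and a few core subunits of complexes I, III, IV and V are encoded by mitochondrial DNA and are not part of the set. Tregs are known to rely on oxidative phosphorylation more than activated conventional T cells do, and T cell receptor signals that start growth also raise mitochondrial mass.

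Transcripts of the respiratory subunits lay slightly lower in the cells sorted from MHC II-deficient recipients, and no single gene passed the threshold. Of the 84 genes tested, 73 lay lower and 11 higher, with a median difference of -0.18, or 1.13-fold lower. Over all tested genes the median was 0.02 and 46.0% lay lower. By limma's test with Benjamini-Hochberg adjustment 0 of the 84 were called, where 3.37% of all tested genes were (2.03% lower and 1.34% higher), and the smallest adjusted p was 0.082. At an unadjusted p under 0.05, 24 of the 84 lay lower (28.6%) and 0 higher, against 11% and 7.85% of all tested genes. At mean levels of at least 9, 20 of 62 respiratory genes lay lower at such a p (32.3%), against 22.2% of all tested genes there. This excess did not hold under every setting. In either direction 9 of the 84 had such a p after quantile normalization, where 17.7% of all tested genes did. Once the myeloid score was fitted 6 had such a p, where 14.3% of all tested genes did. Without deficient 1 there were 11, a share no larger than that of all tested genes. Without deficient 2 there were 13, where 14.2% of all tested genes had such a p. With any other array left out there were 17 to 24, a larger share than among all tested genes. The 3 deficient arrays lay below all 3 competent arrays for 38 genes (45.2%), where 12.9% of all tested genes did so, and above them for 1 gene (Cox8c), where 11.4% did. The mean over the 84 genes was 9.98, 9.97 and 9.96 on the competent arrays and 9.75, 9.82 and 9.84 on the deficient arrays. These array means did not overlap between the groups. The differences of single genes ran from -0.40 to 0.20, and their 95% intervals together spanned -0.70 to 0.49.

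**Figure D1:**
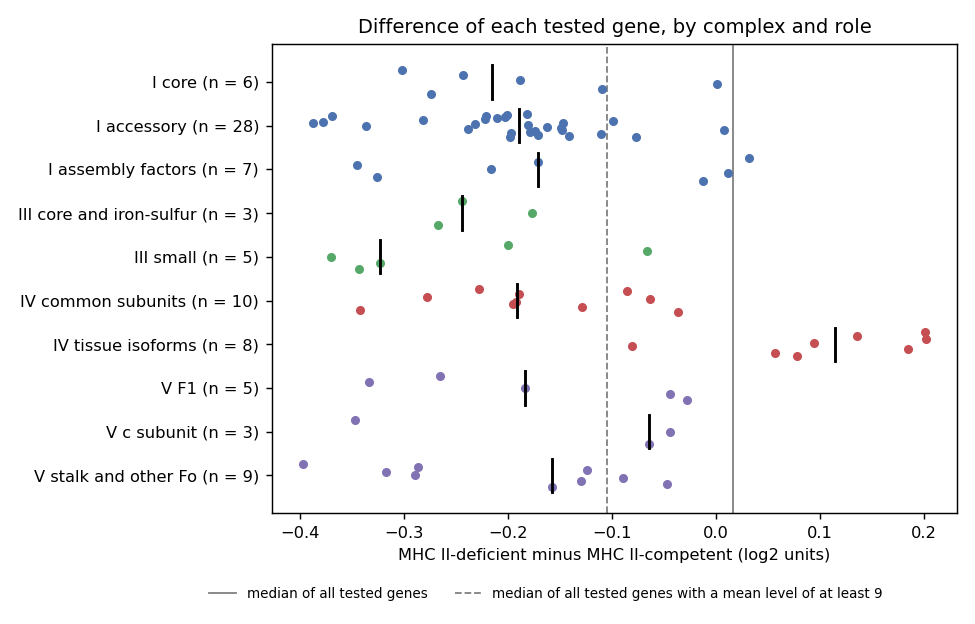
Difference between the groups (deficient minus competent, log2 units) for each of the 84 tested genes, by complex and role. Each point is a gene, black bars are medians of the role groups, and the grey lines are medians of all tested genes (0.02) and of all tested genes with a mean level of at least 9 (-0.10). Every role group but the tissue isoforms of complex IV, counted with related proteins such as Cox7a2l and Ndufa4l2, has its median below 0.

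Part of this shift was shared by other genes of similar signal. Among all 2390 tested genes with a mean level of at least 9, the median difference was -0.10, 70.0% lay lower, and the groups were apart in the lower direction for 29.7%. The 62 respiratory genes in that range had a median of -0.19, 61 of them lay lower, and for 34 (54.8%) the groups were apart in the lower direction. The 9 T cell and Treg markers, also in that range, had a median of -0.14, and for 5 (55.6%) the groups were apart in that direction. Under 9 the 22 respiratory genes had a median of -0.07, against 0.03 for all 12647 tested genes in that range. The arrays also differed in how far their values spread, with an SD over rows of 1.96, 1.998 and 1.91 on competent 1, 2 and 3 and 1.89 to 1.91 on the deficient arrays. After quantile normalization, which gives all arrays 1 distribution, the median of the 84 genes was -0.10 with 64 lower, and that of all tested genes was 0.00. In the range of at least 9 it was then -0.10 for the respiratory genes and -0.02 for all genes, and the groups were apart in the lower direction for 16 of 62 respiratory genes (25.8%) and 16.8% of all. After median centring of the arrays these medians were -0.24 and -0.16. The respiratory genes of this signal range thus lay below the median of all genes in it under each of the 3 scalings.

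**Figure D2:**
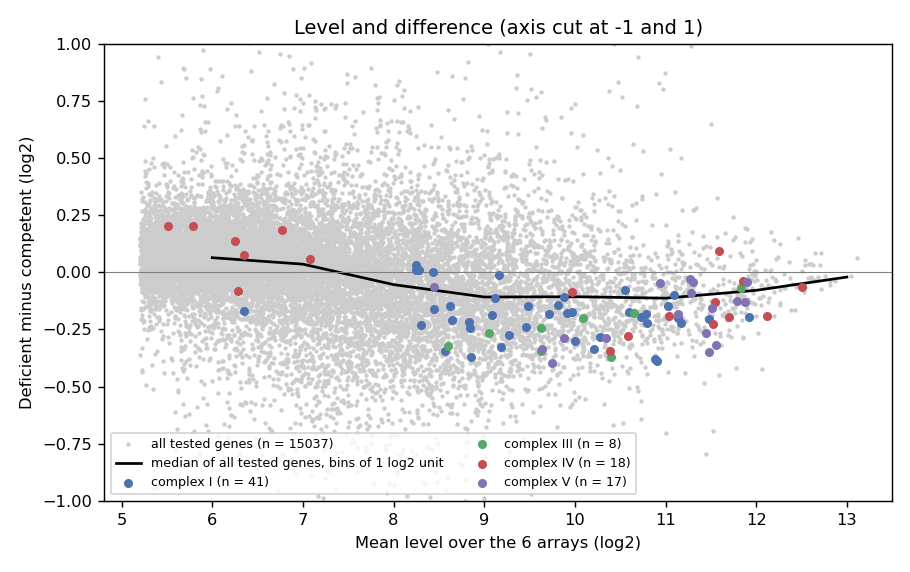
Mean level over the 6 arrays against the difference between the groups, both in log2 units, for all 15037 tested genes (grey) and for the 84 respiratory genes coloured by complex. The axis is cut at -1 and 1, which leaves 106 tested genes undrawn. The black line is the median of all tested genes in bins of 1 log2 unit, which falls from 0.06 at levels of 5.5 to 6.5 to -0.11 at 9.5 to 10.5. The respiratory genes below their bin median were, in bins rising from 5.5, 2 of 6, 0 of 2, 3 of 7, 14 of 15, 17 of 18, 16 of 22, 9 of 13 and 1 of 1.

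Complex I, the largest of the complexes, had 37 of 41 genes lower, with a median of -0.19. None passed the threshold by limma, and 10 of 41 (24.4%) had an unadjusted p under 0.05, all lower. The share in that direction was 11% of all tested genes and 22.2% of those at a level of at least 9. Its array means were 9.77, 9.76 and 9.75 in the competent group and 9.51, 9.58 and 9.62 in the deficient group. The accessory subunits, which surround the catalytic core, accounted for most of the genes with separate groups: 16 of 28, against 1 of 6 core subunits, where the share was 12.9% of all tested genes and 29.7% of those at a level of at least 9. The contrast between the kinds of subunit was not tested.

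Among the accessory subunits, Ndufs5 had levels of 8.84, 9.01 and 9.26 on the competent arrays and 8.71, 8.59 and 8.70 on the deficient arrays. Every deficient array lay below every competent array, and the difference was -0.37 (SE 0.12, adjusted p = 0.14 by limma). Ndufb8, a membrane-arm subunit that is lost when complex I fails to assemble, stood at 10.43, 10.50 and 10.33 against 10.13, 10.14 and 10.14. Its groups did not overlap and the deficient arrays were within 0.01 (SD) of each other, with a difference of -0.28 (SE 0.09, adjusted p = 0.14). Ndufb5, another membrane-arm subunit, had the most negative difference of the complex, -0.39 (SE 0.13), but its deficient arrays were spread from 10.46 to 10.97. Its difference was -0.26 without deficient 1 and -0.11 once the myeloid score was fitted.

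The core subunits carry the flavin and the iron-sulfur clusters that pass electrons from NADH to ubiquinone. Their median was -0.22, with 5 of 6 lower. Ndufs1, the largest of them, had levels of 9.59, 9.47 and 9.17 on the competent arrays and 9.04, 9.05 and 9.33 on the deficient arrays, a difference of -0.27 (SE 0.13, adjusted p = 0.31) with overlap. Ndufv1, which binds NADH, varied most between replicates, at 9.36, 9.07 and 8.47 against 8.55, 8.93 and 8.69. Its difference of -0.24 had an interval from -0.70 to 0.22, and was -0.05 without competent 1 and -0.49 without competent 3.

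The assembly factors of complex I help to build the complex and do not stay in it. Of the 7 tested, 5 lay lower, with a median of -0.17. Ndufaf2, a chaperone of late assembly, stood at 9.23, 9.29 and 9.53 against 9.08, 9.04 and 8.96, with no overlap and a difference of -0.33 (SE 0.11, adjusted p = 0.14). Ndufaf7, a methyltransferase that modifies a core subunit, had the highest difference in complex I, 0.03 (SE 0.18). Its sign was negative after median centring (-0.02), with array weights (-0.07) and without competent 3 (-0.17) or deficient 2 (-0.06).

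All 8 genes of complex III lay lower, with a median of -0.26, the lowest of the 4 complexes. The groups were apart in the lower direction for 3 of the 8 (37.5%). That share was 12.9% of all tested genes and 29.7% of those at a level of at least 9. The array means were 10.15, 10.12 and 10.06 against 9.76, 9.90 and 9.93. Uqcrb, a small subunit at the ubiquinone site, had levels of 10.55, 10.59 and 10.59 on the competent arrays and 10.14, 10.11 and 10.37 on the deficient arrays. The competent arrays lay within 0.02 (SD) of each other and above every deficient array, and the difference was -0.37 (SE 0.10, adjusted p = 0.089). It passed the threshold with limma's trended robust prior (0.044), and its adjusted p ran from 0.044 to 0.49 over the alternatives. Uqcr10 (-0.34, SE 0.14) and Uqcr11 (-0.32, SE 0.14), other small subunits, had wider spreads, and the groups overlapped for Uqcr11.

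The iron-sulfur protein of complex III, Uqcrfs1, stood at 9.70, 9.72 and 9.81 against 9.49, 9.41 and 9.60, without overlap, and differed by -0.24 (SE 0.10, adjusted p = 0.21). The core proteins Uqcrc1 (-0.27, SE 0.15) and Uqcrc2 (-0.18, SE 0.11) had overlapping groups. Uqcrc1 lay at 8.86 on competent 3 and at 9.40 and 9.30 on the other competent arrays. Uqcrh, the hinge protein that binds cytochrome c1, differed by -0.07 (SE 0.09, interval -0.28 to 0.14), and by 0.00081 after quantile normalization.

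Of the 18 tested genes of complex IV, 11 lay lower and 7 higher, with a median of -0.07. None passed the threshold by limma, and 3 (16.7%) had an unadjusted p under 0.05, all lower. The share in that direction was 11% of all tested genes and 22.2% of those at a level of at least 9. The complex divided by the kind of subunit. All 10 tested genes for the subunits found in most tissues lay lower, with a median of -0.19, and for 7 of them the groups were apart in the lower direction. All 10 have a mean level above 9, the range in which 29.7% of all tested genes were apart in that direction as deposited and 16.8% after quantile normalization. Their array means were 11.39, 11.42 and 11.42 on the competent and 11.22, 11.24 and 11.24 on the deficient arrays. Of the 8 tested isoforms of muscle, lung or testis and related proteins, 7 lay higher, with a median of 0.11. Among all tested genes the median was 0.06 at levels of 5.5 to 6.5 and 0.04 at 6.5 to 7.5, the range of most of these isoforms. Cox7a2l, counted here as a related protein, is the exception, at a mean level of 11.59. The median of all tested genes in the bin of 1 log2 unit from 11.5 was -0.08. The difference between the 2 kinds was not tested.

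Cox5a, which binds regulators such as thyroid hormone metabolites in the matrix, had the smallest adjusted p of the whole set. Its levels were 10.50, 10.52 and 10.65 on the competent and 10.23, 10.21 and 10.21 on the deficient arrays. The groups were clearly apart, with a difference of -0.34 (SE 0.09, interval -0.55 to -0.14, adjusted p = 0.082), a 1.27-fold lower level. With the trended robust prior it passed (0.038), and its adjusted p ran from 0.038 to 0.41 over the alternatives. Cox7a2, the isoform of subunit VIIa used outside muscle, stood at 10.62, 10.81 and 10.75 against 10.46, 10.38 and 10.50, a difference of -0.28 (SE 0.10, adjusted p = 0.16). Ndufa4, which was first counted with complex I and is now assigned to complex IV, stood at 11.63, 11.52 and 11.78 against 11.39, 11.39 and 11.47, a difference of -0.23 (SE 0.10, adjusted p = 0.26).

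Other subunits of complex IV lay close to 0. Cox4i1, the ubiquitous isoform of subunit IV, had levels of 11.99, 11.92 and 11.72 against 11.89, 11.88 and 11.76. The groups overlapped, and the difference of -0.04 (SE 0.10, interval -0.27 to 0.20) was 0.03 after quantile normalization and 0.02 without competent 1. Cox8a, the ubiquitous subunit VIII, differed by -0.08 (SE 0.10). The heart and muscle isoform Cox6a2 stood at 7.12, 6.92 and 7.11 against 7.01, 7.16 and 7.15, a difference of 0.06 (SE 0.10), and was -0.01 without competent 2. The muscle isoform Cox7a1 differed by -0.08 (SE 0.20), with arrays from 5.96 to 6.70 in the competent group alone. Cox7a2l, which takes part in joining complexes III and IV into supercomplexes, stood at 11.56, 11.75 and 11.31 against 11.61, 11.65 and 11.65, a difference of 0.09 (SE 0.12) that was -0.02 without competent 3.

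The filter on low values removed genes with a mean under 5.205. Cox7b2, a testis isoform with a mean of 4.17, was the 1 gene of the set below it and was not tested. Ndufa4l2, a paralogue of Ndufa4 known to be induced by hypoxia, lay just above it, with 5.42, 5.31 and 5.52 against 5.51, 5.57 and 5.78, a difference of 0.20 (SE 0.11, adjusted p = 0.36). The muscle isoform Cox8b, next above, had the highest difference of the set, 0.20 (SE 0.12), with 5.68, 5.78 and 5.59 against 6.03, 5.67 and 5.97. The groups overlapped for both.

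All 17 genes of complex V lay lower, with a median of -0.16, and for 9 the groups were apart. The share apart in the lower direction was 12.9% of all tested genes and 29.7% of those at a level of at least 9, the range of 16 of the 17. The array means were 11.01, 11.01 and 11.00 against 10.77, 10.86 and 10.85. Atp5pb, the b subunit of the peripheral stalk that holds the catalytic head still, had the lowest difference of all 84 genes. Its levels were 9.88, 10.07 and 9.90 on the competent and 9.39, 9.59 and 9.67 on the deficient arrays, a 1.32-fold lower level (log2 -0.40, SE 0.11, interval -0.64 to -0.15, adjusted p = 0.088). A second row of Atp5pb differed by -0.10 with overlapping groups.

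The catalytic head, F1, holds 3 copies each of the α and β subunits around the central stalk. The genes of these subunits, Atp5a1 (α) and Atp5b (β), lay close to 0, as did Atp5j (-0.05), Atp5g1 and Atp5g2. Atp5a1 stood at 11.56, 11.31 and 10.99 against 11.22, 11.29 and 11.27, and Atp5b at 11.46, 11.46 and 11.05 against 11.26, 11.26 and 11.31. For both, competent 3 lay below every deficient array and the other competent arrays lay above them. The differences of -0.03 (SE 0.14) and -0.04 (SE 0.12) were 0.05 each after quantile normalization and -0.18 each without competent 3. Atp5d, the δ subunit of the central stalk, stood at 9.87, 9.91 and 9.64 against 9.40, 9.56 and 9.47, without overlap (-0.33, SE 0.11, adjusted p = 0.13).

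The c subunits form the rotating ring in the membrane and come from 3 genes, Atp5g1, Atp5g2 and Atp5g3, which are known to encode the same mature protein behind different import sequences. Atp5g3 had levels of 11.66, 11.52 and 11.77 on the competent and 11.12, 11.40 and 11.39 on the deficient arrays, without overlap (-0.35, SE 0.12, adjusted p = 0.14). Atp5g1 (-0.06, SE 0.11) and Atp5g2 (-0.04, SE 0.09) had overlapping groups, and their signs turned after quantile normalization (0.01 and 0.02). Among rows of such similar copies an array cannot always tell which transcript it measures.

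**Figure D3:**
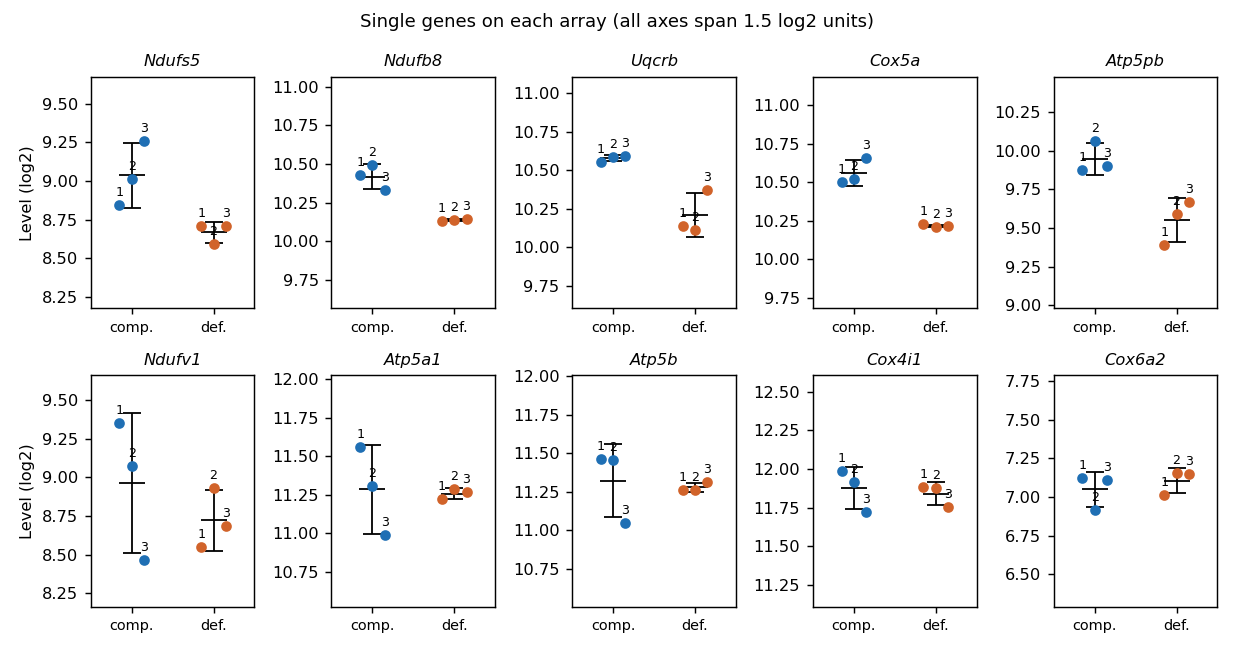
Levels (log2) of 10 genes on the 3 competent (blue) and 3 deficient (orange) arrays, numbered by replicate, with the mean and SD of each group. All axes span 1.5 log2 units. The groups are apart for Ndufs5, Ndufb8, Uqcrb, Cox5a and Atp5pb, and overlap for Ndufv1, Atp5a1, Atp5b, Cox4i1 and Cox6a2.

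Within the competent group, competent 3 lay low for several core and F1 subunits. Its level lay below both other competent arrays for 4 of the 6 core subunits of complex I, 2 of the 3 core and iron-sulfur subunits of complex III and 3 of the 5 F1 subunits of complex V, with medians of -0.25, -0.14 and -0.25 against the mean of the other 2. For the 28 accessory subunits of complex I it did so for 7 and for the 9 stalk and other Fo subunits for 0, with medians of 0.07 and 0.09. Over all tested genes 33.3% lay lowest there within the group, with a median of 0.02. Not all genes followed the pattern: of the core and F1 subunits, Uqcrfs1 (0.10) and Atp5e (0.12) lay higher on competent 3. Outside them, Ndufaf7 (-0.62) and Cox7a2l (-0.34) lay lower. Of all 84 genes 28 (33.3%) lay lowest there. This pattern was noticed in the values and was not tested. Without competent 3 the median of the 84 genes was -0.17, 75 lay lower and 0 were called.

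**Figure D4:**
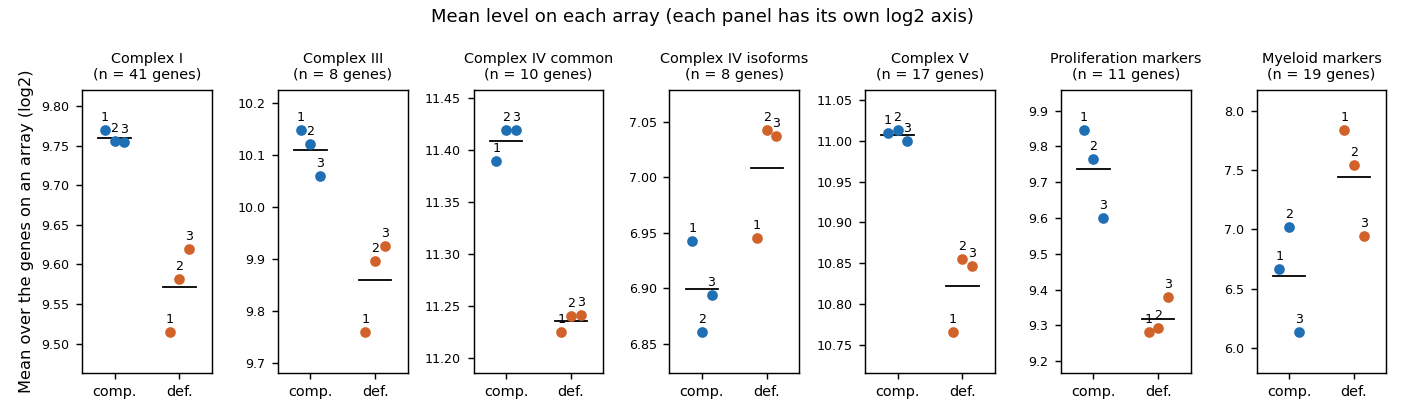
Mean log2 level over the genes of each set on each array, numbered by replicate, with group means as bars. Each panel has its own axis. The competent arrays lie above all deficient arrays for complexes I, III and V, the common subunits of complex IV and the proliferation markers, while the tissue isoforms and the myeloid markers lie mostly higher on the deficient arrays.

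Of the 85 genes, 17 had more than 1 row, with 24 further rows. The 23 of these that reached the filter value had a median difference of -0.17, 17 lay lower, and 18 had the sign of the row used. Rows disagreed in sign for Ndufab1, the mitochondrial acyl carrier protein, at -0.16 in the row used and 0.50 in the other, and for Atp5l, where 1 of 5 rows stood at 0.28 and the others from -0.50 to -0.24. They also did for Ndufs3 (-0.11 in the row used, 0.19 in the other) and Atp5g1 (-0.06 and 0.04). The row used for Atp5g2 stood at -0.04 and its further rows at -0.09 and 0.12. Averaging all rows of a gene gave a median of -0.18 with 71 of 84 lower and 0 called. A further 6 rows carry several symbols, those of Cox7c, Ndufb4 or Ndufs5 among them, and were not used.

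Other genes of the pathway that the symbol rule does not take were followed as a list. It covered complex II, cytochrome c, further assembly factors, supercomplex factors, and genes for transcription of respiratory genes and for mitochondrial DNA. Of the 57 tested, 1 fell and 0 rose, beside 3.37% called among all tested genes, and 33 lay lower, with a median of -0.05. The gene that fell was Uqcc2, an assembly factor of complex III, with 9.15, 9.18 and 9.13 on the competent and 8.16, 8.57 and 8.68 on the deficient arrays. It was 1.61-fold lower (log2 -0.68, SE 0.14, adjusted p = 0.030 by limma), and its adjusted p ran from 0.020 to 0.31 over the alternatives. The call ended after quantile normalization, with the mean of its rows, once the myeloid score was fitted, and without each of competent 1, competent 2, deficient 1 and deficient 2, where the difference lay between -0.74 and -0.47.

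Complex II, which feeds electrons from succinate and belongs to the citric acid cycle as well, had 3 of 6 genes lower and a median of 0.01. Its catalytic subunit Sdha stood at 10.52, 10.26 and 10.20 against 10.28, 10.37 and 10.25 (-0.03, SE 0.11), and turned its sign after quantile normalization (0.06). The iron-sulfur subunit Sdhb differed by -0.23 (SE 0.13, adjusted p = 0.40). Cycs, the electron carrier cytochrome c, stood at 11.18, 11.45 and 11.31 against 10.84, 10.95 and 11.05, without overlap (-0.37, SE 0.11, adjusted p = 0.11), and cytochrome c1, Cyc1, differed by -0.15 (SE 0.10).

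The listed genes for transcription of respiratory genes and for mitochondrial DNA showed no common direction. Of the 16 tested, 6 lay lower, with a median of 0.06 and differences from -0.37 to 0.35. Nrf1, nuclear respiratory factor 1, stood at 7.28, 7.38 and 7.48 against 7.39, 7.35 and 7.56 (0.05, SE 0.10, interval -0.18 to 0.29). Tfam, which packs mitochondrial DNA and acts in its transcription, differed by -0.20 (SE 0.12, interval -0.46 to 0.06). The coactivator gene Ppargc1a had levels of 4.24 to 4.60, under the filter value, and was not tested.

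Promoters were read because genes of the respiratory chain are known to share sites for a few factors. RefSeq windows from 250 bases before to 50 after the start (GRCm38.p6) were held for 70 of the 85 genes and for 17491 protein-coding genes, and were searched on both strands for GCGCATGCG (NRF1), AAGATGGCG (YY1), CCGGAAG (ETS factors such as GABPA), TCAAGGTCA (the estrogen-related receptors) and GGGCGGG (SP factors). The NRF1 letters stood in 10 respiratory promoters (14.3%, against 2.61% of all protein-coding genes), the YY1 letters in 7 (10% against 2.14%) and the ETS letters in 16 (22.9% against 12.9%). The receptor letters stood in 1 (1.43% against 0.377%) and the SP letters in 24 (34.3% against 36.9%). At least 1 of the first 3 was found in 28 of the 70 (40.0% against 16.6%). The median difference was -0.19 for the genes with such a match and -0.18 for those with none.

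For each complex, the 150 bases before the start are shown for the gene with the smallest p among those with an NRF1, YY1 or ETS match there, read 5′ to 3′ on the gene's strand. Capitals mark the matches, on either strand. That of Ndufa8, an accessory subunit of complex I (level difference -0.24, SE 0.13), holds the NRF1 letters right before the start and an SP match. Those of Uqcr11, Cox6b1 (-0.19, SE 0.09) and Atp5e, the ε subunit of F1 (-0.26, SE 0.09), hold the ETS letters, and that of Atp5e an SP match too.
Ndufa8, chr2:36049339-36049488, minus strand: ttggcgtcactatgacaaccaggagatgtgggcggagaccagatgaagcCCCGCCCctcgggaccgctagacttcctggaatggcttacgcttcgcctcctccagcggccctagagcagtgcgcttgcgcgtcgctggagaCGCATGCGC
Uqcr11, chr10:80406822-80406971, minus strand: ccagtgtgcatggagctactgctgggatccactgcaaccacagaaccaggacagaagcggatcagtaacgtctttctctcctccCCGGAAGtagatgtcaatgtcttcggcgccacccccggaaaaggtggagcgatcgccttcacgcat
Cox6b1, chr7:30626115-30626264, minus strand: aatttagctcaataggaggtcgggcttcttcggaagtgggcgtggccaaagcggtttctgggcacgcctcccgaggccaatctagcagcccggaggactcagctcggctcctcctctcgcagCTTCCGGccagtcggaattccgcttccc
Atp5e, chr2:174464102-174464251, minus strand: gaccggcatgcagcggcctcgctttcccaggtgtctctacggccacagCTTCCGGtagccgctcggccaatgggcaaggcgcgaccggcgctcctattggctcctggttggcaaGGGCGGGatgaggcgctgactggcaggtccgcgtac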

How the data were processed

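RMA and affy are the tools that the submitters' processing notes name for the authors' values. The deposited log2 values were used as they are, and the log base, taken as 2 from their range (2.40 to 13.3), is not stated; versions, annotation and build are not given in the sources used here. Of 28101 rows, 21640 had 1 gene symbol in the platform annotation, updated by Entrez identifier, and gave 19937 genes. The 15037 with a mean of at least 5.205, the 25th percentile of these rows, went into a limma model (version 3.58.1, under R 4.3.3, default eBayes prior, two-sided, no covariate, 4 residual degrees of freedom), which was tested on simulated data. Of 50 genes changed at each size in the simulated data, 0 were recovered at a log2 size of 0.2, 10 at 0.5 and 40 at 1. Errors are limma's SE or the SD over 3 arrays. No p was computed over the set. Members and lists were chosen with earlier results of these data known. Ndufa4 and Ndufa4l2 were counted with complex IV. Genes were named by a fixed rule (calls, the 3 smallest p and both extremes of each complex, fixed core genes and isoforms, filter neighbours), and Higd1a, Cox18, Ndufab1, Ndufs3, Atp5j, Atp5l, Ndufa8, Uqcr11, Cox6b1, Cox8c and Atp5e were named after their values were seen. Replicate numbers did not pair the arrays: deviations of same-numbered arrays correlated at -0.02, -0.14 and 0.07. Alternatives were no filter or one at the median, quantile normalization, median centring, array weights, a trended robust prior, the replicate number as a block, the mean of a gene's rows, a myeloid covariate and each array left out. The number of arrays limits the precision. No protein sequences were used here.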

Additional observations from a re-analysis of the deposited data

How the results depend on the processing

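In no alternative, including each array left out, was a respiratory gene called higher, and 0 were called lower except 2 (Uqcrb and Cox5a) with the trended robust prior. The replicate number as a block gave 0 as well, and 564 calls over all genes. At an unadjusted p under 0.05 it gave 19 of the 84, where 17.7% of all tested genes had such a p. The median of all members was -0.10 after quantile normalization, -0.23 after median centring, -0.13 with the myeloid covariate and -0.19 to -0.16 with 1 array left out. For complexes I, III, IV and V it was -0.10, -0.17, -0.0085 and -0.069 after quantile normalization. Median centring gave -0.24 for I, -0.12 for IV and -0.21 for V, the myeloid covariate -0.14 for I, and a filter at the median -0.11 for IV. With 1 array left out complex IV ran from -0.081 to -0.033. Calls over all genes were 61 with the myeloid covariate and 159 to 708 with 1 array left out. Among the other respiratory genes 2 were called with array weights (Uqcc2, and Cox18, higher), 3 with the trended robust prior (Cycs, Higd1a and Uqcc2), 2 with the replicate block (Higd1a and Uqcc2), 1 after quantile normalization (Cox18, higher, in place of Uqcc2), 0 with the mean of rows, 0 with the myeloid covariate and 0 to 1 with 1 array left out. Quantile normalization turned the sign of Uqcrh (0.00081), Atp5a1 (0.054), Cox4i1 (0.029), Atp5b (0.047), Atp5g1 (0.012), Atp5g2 (0.022) and Sdha (0.059). Ndufaf7 turned with median centring (-0.022), array weights (-0.066) and the myeloid covariate (-0.19), which also turned Cox7a1 (0.23), Cox7a2l (-0.089) and Atp5g2 (0.037). With 1 array left out, signs turned within the ranges of Atp5a1 (-0.18 to 0.11), Cox4i1 (-0.11 to 0.020), Atp5b (-0.18 to 0.024), Atp5g1 (-0.14 to 0.0041), Sdha (-0.094 to 0.067), Cox6a2 (-0.0089 to 0.10), Ndufaf7 (-0.17 to 0.18), Cox7a1 (-0.26 to 0.11), Cox7a2l (-0.019 to 0.20) and Nrf1 (-0.0093 to 0.11). The causes were not tested.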
